A study of Mus musculus with 40 samples.

Results

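The genes described here are the genes of DNA replication and of the passage from G1 into S phase: 51 genes chosen by symbol, all of them found among the 24062 genes of the count table. They fall into 11 groups by role, from the origin recognition complex to cyclin E. RNA-Seq was performed on primary fibroblasts (MEFs) taken from mouse embryos at 13.5 days post coitum and used at passage 3. They were wild-type (WT), heterozygous (Het) or knockout (KO) at Sall2, which codes for a zinc finger protein that regulates transcription. Cells were left untreated (control) or were grown with doxorubicin, a topoisomerase II poison that breaks DNA, at 1 µM for 16 h. The control group held 1 WT, 1 Het and 3 KO libraries, and the doxorubicin group held 1 WT, 1 Het and 2 KO libraries. All cells came from a mixed C57BL/6J-129P2OlaHsd background, and the Sall2 allele was targeted in 129P2 embryonic stem cells, so KO and WT embryos can also differ in the 129P2 segment around the gene. WT and Het were 1 embryo each, and a genotype effect in them cannot be told apart from a difference between embryos.

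DNA replication is prepared in G1, when the origin recognition complex, CDC6 and CDT1 load the MCM helicase onto origins. In S phase CDC45 and the GINS complex turn the loaded helicase on, and polymerases, clamp loader, clamp, ligase and nucleotide enzymes then copy the genome while CAF-1, UHRF1 and DNMT1 rebuild chromatin and DNA methylation behind the fork. Many of these genes are transcribed by E2F factors at the G1/S boundary, so in cultured fibroblasts their RNA is known to follow the share of cycling cells. In bulk RNA, fewer cells in a given phase and less RNA per cell cannot be told apart.

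The total count lay between 15560728 and 24122414 per library, and values are given as CPM, the usual depth-corrected count of a gene, here with library totals scaled by TMM, in the order WT, Het, KO 1, KO 2 and KO 3 for control and WT, Het, KO 1 and KO 2 for doxorubicin. Sall2 had 37.7, 24, 19.9, 24.3 and 19 CPM in control and 9.35, 7.95, 4.23 and 3.72 CPM with doxorubicin, so its RNA was present in every library of each genotype and was lower in all KO libraries than in WT of the same treatment. A deposited column for KO 3 with doxorubicin repeated that of KO 2 at all 24062 genes and was left out. Which of these cultures the shared values came from is not known, and they are given here as KO 2. The KO 2 pair and the embryo block rest on that label. The Het control, KO 3 control and Het doxorubicin libraries stood apart: over 16656 genes their Pearson correlation with the other libraries of the same treatment was 0.937 to 0.947, against 0.988 to 0.993 among those others. The 12 interferon-stimulated genes of a marker list summed to 70.4, 2266, 87.5, 72.5 and 2488 CPM in control and 302, 1447, 351 and 374 CPM with doxorubicin, and 10 fibroblast markers summed to 96060, 20352, 78878, 87901 and 16504 CPM in control and 59712, 22376, 55332 and 47610 CPM with doxorubicin. Macrophage markers, of which 9 of 10 are in the table, summed to 211, 582, 150, 116 and 427 CPM in control and 127, 645, 108 and 74.3 CPM with doxorubicin. No fibroblast, macrophage, endothelial or epithelial marker in the table was at 0 in every library, while 4 of 7 erythroid markers were, and the other erythroid markers that passed the filter on low counts summed to at most 3.25 CPM. In the treatment comparison described next, 3 of 7 endothelial markers tested rose, 2 of 4 epithelial markers rose and 1 fell, 1 of 9 macrophage markers rose and 1 fell, 1 of 10 fibroblast markers fell, and 0 of the 12 interferon-stimulated genes passed. Without the 3 libraries that stood apart, 10 of the 12 interferon-stimulated genes rose and 1 fell, with a median log2 fold change of 3.13 against -0.85 over all libraries, and 4 fibroblast and 5 macrophage markers fell. The counts of treatment calls are therefore also given without these libraries, and their part in the results was not tested.

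The treatment was compared over all 9 libraries with genotype as a covariate, by edgeR's quasi-likelihood test at a false discovery rate (FDR) under 0.01 over 16656 genes. All 51 genes passed the filter on low counts. Doxorubicin lowered 13 of them (25.5%) and raised 4 (7.84%), while 34 did not pass. Among all genes tested 18.7% were lower, 21.9% were higher and 40.6% passed in either direction, so the replication genes were not called more often than other genes, and their lower calls outnumbered their higher ones. The median log2 fold change was -0.29 over the 51 genes and 0.02 over all genes tested. With the embryo as a block, each treated library is compared with the control library of the same genotype and number, taken as the same embryo. In that fit 21 were lower and 8 were higher, beside 26.9% and 30% of all genes. Without the 3 libraries that stood apart, 23 were lower and 10 were higher, beside 31.4% and 35.1% of the 15442 genes then tested. The 17 genes called over all libraries were called in the same direction in both of these fits. The labels number the libraries without naming separate cultures, so the tests measure the spread between these libraries. Leaving out WT control or WT doxorubicin gave 7 lower genes, leaving out KO 2 doxorubicin 8, and leaving out KO 3 control 21. Over all genes tested the lower calls moved alike. They numbered 3115 with all libraries, 1933 without WT control, 1959 without WT doxorubicin, 1971 without KO 2 doxorubicin and 4560 without KO 3 control. Of higher genes there were 8 without KO 3 control, and 2 without either of the Het libraries or either of the KO doxorubicin libraries. The higher calls over all genes were 3645 with all libraries and 5210 without KO 3 control. They were 2720 and 2673 without Het control and Het doxorubicin, and 2482 and 2351 without KO 1 and KO 2 doxorubicin. Scaling by library totals alone gave 11 lower and 6 higher genes, beside 2444 and 3452 of all 16656 genes. Upper-quartile scaling, which moved the median of all genes to 0.21, gave 10 and 7, beside 2424 and 4223.

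**Figure D1:**
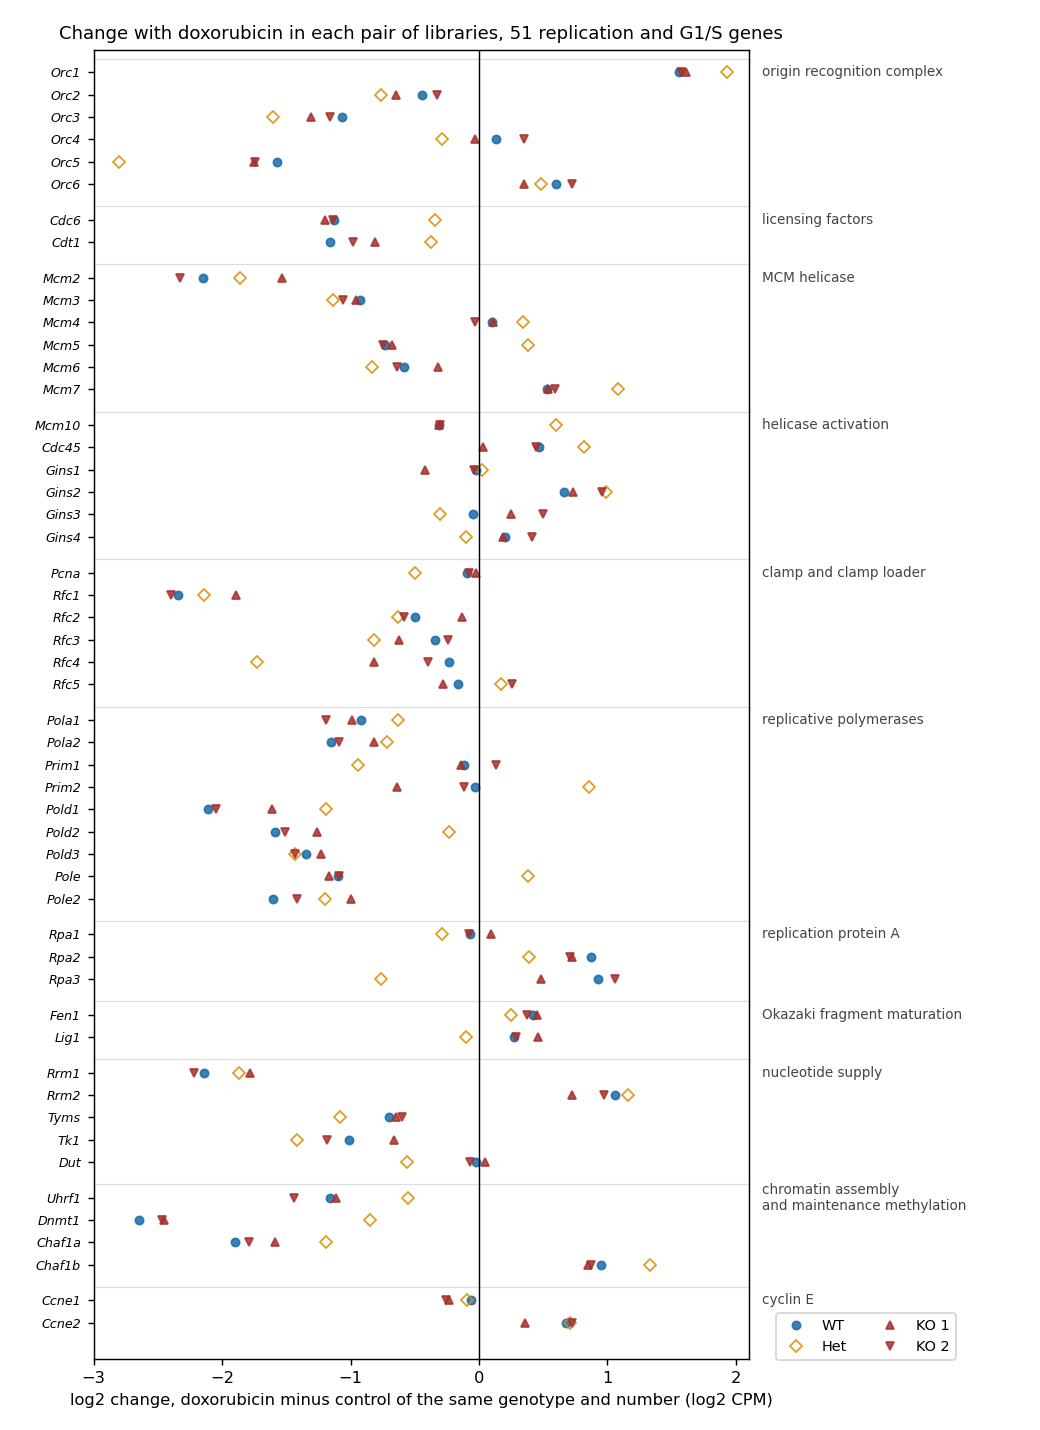
The plot gives on the x axis the log2 change from control to doxorubicin in the WT, Het, KO 1 and KO 2 pairs of libraries, 1 row per gene and 1 symbol per pair, grouped by role. The WT, KO 1 and KO 2 symbols lie close together for most genes, from Dnmt1 at -2.65 in WT to Orc1 at 1.61 in KO 1, while the Het symbol often stands apart.

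In the 3 pairs of libraries that did not stand apart (WT, KO 1 and KO 2), 31 of 51 genes were lower in all 3 pairs, 13 were higher in all 3, and 7 were mixed, beside 39.1%, 46.6% and 14.3% of all genes tested. Including the Het pair, 26 genes (51%) were lower and 10 (19.6%) were higher in all 4 pairs, beside 34.8% and 39.1% of all genes tested. The genes that were higher in all 4 were Orc1, Orc6, Mcm7, Cdc45, Gins2, Rpa2, Fen1, Rrm2, Chaf1b and Ccne2. The lowest and the highest library of each treatment did not overlap at 15 genes: doxorubicin lay wholly below control at 13, beside 21.6% of all genes, and wholly above it at Orc1 and Gins2, beside 24.8% of all genes.

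The origin recognition complex, which marks the origins, split in direction. Orc1, its largest subunit and a gene whose RNA peaks at G1/S, lies on chromosome 4 from 108579423 to 108614833 (GRCm38) and had 9.71, 7.99, 9.76, 9.71 and 11.6 CPM in control and 28.9, 30.8, 29.9 and 29.1 CPM with doxorubicin. Every treated library was above every control library. Its log2 fold change was 1.62 (standard error 0.16, FDR 6.89e-05), and it was 1.56, 1.93, 1.61 and 1.57 in the WT, Het, KO 1 and KO 2 pairs. Orc5, an ATP-binding subunit of the same complex, had 15.4, 17.4, 15.4, 15.9 and 22 CPM in control and 5.12, 2.42, 4.51 and 4.68 CPM with doxorubicin, so every treated library was below every control library. It fell, with a log2 fold change of -2.06 (standard error 0.25, FDR 0.000205) and the largest drop in the Het pair. Orc3 and Orc2 also fell, with log2 fold changes of -1.35 (standard error 0.15, FDR 0.000149) and -0.54 (standard error 0.13, FDR 0.00794), and without overlap between the treatments, and 24% of the exon length of Orc2 overlaps Nif3l1 on the opposite strand.

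Orc4, another ATP-binding subunit, had 51.3, 75.7, 51.8, 47.8 and 93.7 CPM in control and 56.2, 61.7, 50.9 and 61.1 CPM with doxorubicin, and treated and control libraries overlapped. The values of Orc6, the smallest subunit, were 38.4, 37.5, 44.3, 36.4 and 58.1 CPM in control and 58.3, 52.3, 56.5 and 60.2 CPM with doxorubicin. Orc6 did not pass over all libraries (log2 fold change 0.43, FDR 0.0512) but rose with the embryo as a block (log2 fold change 0.54, FDR 0.00235). The block leaves aside KO 3 control, which has no treated partner and was the highest control library at 58.1 CPM. The ratio of the CPM of Orc1 to that of Orc5 was 0.631, 0.459, 0.635, 0.611 and 0.529 in control and 5.64, 12.7, 6.64 and 6.21 with doxorubicin. Orc1 and Orc5 had the highest and the lowest log2 fold change of the complex, so this ratio describes their changes and is no separate test.

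Both licensing factors were lower in each of the 4 pairs. Cdt1, which brings the helicase to the origin, had 30.2, 13.4, 29.6, 29.2 and 20.2 CPM in control and 13.5, 10.3, 16.8 and 14.7 CPM with doxorubicin, and its log2 fold change was -0.75 (standard error 0.19, FDR 0.00994). The Het control library, at 13.4 CPM, lay below treated libraries, so the groups overlapped. Cdc6, the ATPase that works with CDT1, had 19.3, 6.15, 25.3, 19.1 and 10.1 CPM in control and 8.76, 4.84, 11 and 8.59 CPM with doxorubicin. It did not pass over all libraries (FDR 0.0372) and fell with the embryo as a block (log2 fold change -0.98, FDR 0.00159), where the WT, KO 1 and KO 2 pairs dropped by 1.13 to 1.2 and the Het pair by 0.34.

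The 6 subunits of the MCM helicase, the ring that unwinds DNA at the fork, differed in direction. Mcm2 lies on chromosome 6 from 88883474 to 88898780 and had 106, 29.6, 116, 101 and 33.9 CPM in control and 23.8, 8.09, 40.3 and 20 CPM with doxorubicin. It fell in all 4 pairs, and its log2 fold change was -1.72 (standard error 0.38, FDR 0.00485). Only the untreated Het and KO 3 libraries, at 29.6 and 33.9 CPM, reached into the treated range.

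Mcm7 had 85.8, 43.5, 102, 86.2 and 51.2 CPM in control and 124, 92, 148 and 130 CPM with doxorubicin, and was higher with treatment in each of the 4 pairs. Its log2 fold change of 0.80 just missed the threshold (FDR 0.0108) and it rose with the embryo as a block (log2 fold change 0.68, FDR 0.0012). The ratio of Mcm7 to Mcm2 was 0.808, 1.47, 0.874, 0.853 and 1.51 in control and 5.2, 11.4, 3.68 and 6.49 with doxorubicin, and was higher in every treated library than in every control library. Mcm7 and Mcm2 had the highest and the lowest log2 fold change of the helicase, so this ratio is likewise no separate test. Mcm7 shares 72.8% of its transcript at 97.7% identity with the gene model Gm5487, so its level is uncertain. Mcm4 had 131, 31, 155, 135 and 37.6 CPM in control and 140, 39.2, 168 and 133 CPM with doxorubicin, and its 4 pairs changed by 0.10, 0.34, 0.11 and -0.03.

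The other subunits lay between these. Mcm3 had 95.1, 27, 122, 102 and 31.9 CPM in control and 49.8, 12.3, 63 and 48.8 CPM with doxorubicin, and Mcm6 had 96.6, 25.8, 118, 107 and 35.8 CPM in control and 64.7, 14.5, 94.7 and 68.6 CPM with doxorubicin. Neither passed over all libraries, and both fell with the embryo as a block, by 1.02 (FDR 4.68e-05) and 0.59 (FDR 0.00184) on the log2 scale. Mcm5 had 79.3, 26.7, 100, 84.6 and 29.3 CPM in control and 47.6, 34.8, 62.4 and 50.3 CPM with doxorubicin. It did not pass over all libraries or with the block, and its Het pair changed by 0.38 while the WT, KO 1 and KO 2 pairs changed by -0.73, -0.68 and -0.75. It fell without the 3 libraries that stood apart (log2 fold change -0.73, FDR 0.000132).

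**Figure D2:**
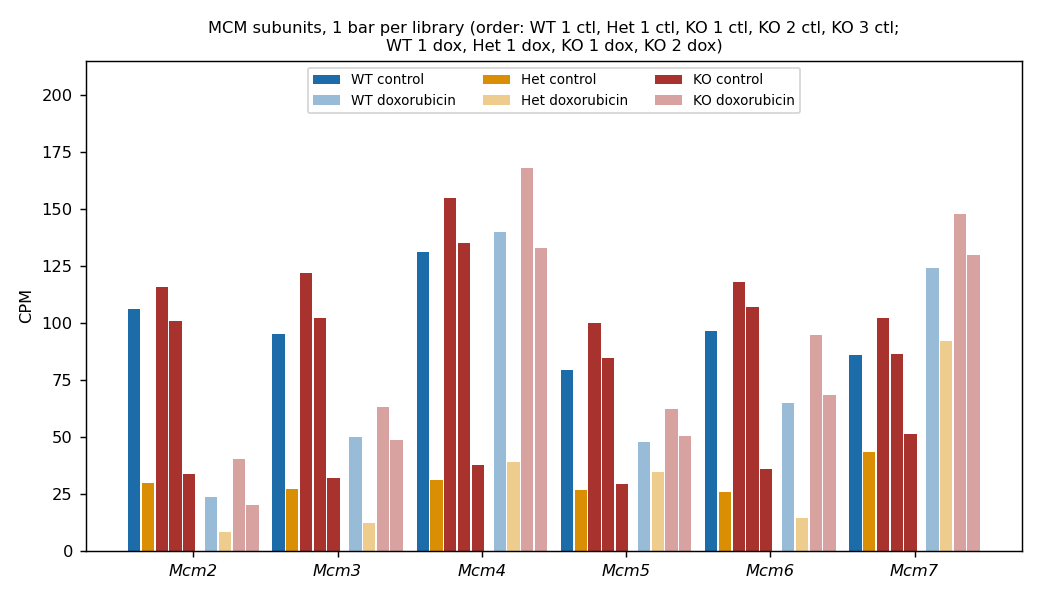
The bars give the CPM of each MCM subunit in the 9 libraries, with control in full colour and doxorubicin in pale colour. Mcm2 bars are lower and Mcm7 bars higher in the treated library of every pair, Mcm4 bars differ by at most 0.34 on the log2 scale within a pair, and the untreated Het and KO 3 bars are the lowest control bars of every subunit.

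Many promoters of these genes held a sequence that was not used to choose them. RefSeq windows (GRCm38.p6) from 250 bases before to 50 bases after an annotated start were at hand for 43 of the 51 genes. The E2F motif was searched on both strands in the forms TTTCCCGC, TTTGGCGC, TTTCGCGC and TTTGCCGC, where a pair of forms can overlap as reverse complements. It was present in 17 of 43 genes (39.5%), beside 4.16% of the 12221 genes tested that had a window. It was present in 6 of the 13 genes with a window that fell, in 1 of 3 that rose and in 10 of 27 that did not pass. The cell cycle homology region, searched as TTTGAA or TTCGAA, was present in 8 of 43 genes, beside 16.3% of genes tested, and CCAAT, the NF-Y box, in 26 of 43, beside 42%. Shown as examples are bases before the start of Mcm5, Mcm6 and Uhrf1, carriers of the motif whose window before the start holds no annotated exon. Not every carrier was examined for this. The Uhrf1 window precedes a RefSeq start that lies inside the GENCODE gene, which begins at 56303321. Capitals mark E2F motifs, which overlap in a pair on opposite strands at Mcm5 and at the first of the Mcm6 sites.
Mcm5 (chr8:75109259-75109508, plus strand): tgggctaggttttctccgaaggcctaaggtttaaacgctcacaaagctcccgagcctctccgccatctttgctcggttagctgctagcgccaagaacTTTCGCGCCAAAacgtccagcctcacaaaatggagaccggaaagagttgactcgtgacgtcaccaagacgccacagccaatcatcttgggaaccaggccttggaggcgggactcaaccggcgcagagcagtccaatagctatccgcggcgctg
Mcm6 (chr1:128359706-128359955, minus strand): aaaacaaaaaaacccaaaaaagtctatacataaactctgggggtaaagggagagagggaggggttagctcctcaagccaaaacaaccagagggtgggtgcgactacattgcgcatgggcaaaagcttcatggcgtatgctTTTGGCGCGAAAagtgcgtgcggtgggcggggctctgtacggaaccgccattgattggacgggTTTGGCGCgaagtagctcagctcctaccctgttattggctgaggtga
Uhrf1 (chr17:56304063-56304312, plus strand): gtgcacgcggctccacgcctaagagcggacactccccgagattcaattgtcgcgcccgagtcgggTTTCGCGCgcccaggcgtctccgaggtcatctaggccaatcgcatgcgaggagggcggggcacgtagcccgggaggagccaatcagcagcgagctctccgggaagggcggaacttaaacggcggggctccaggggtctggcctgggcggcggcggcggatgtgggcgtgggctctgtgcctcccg

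Of the helicase activators, only Gins2 passed over all libraries. Gins2, a subunit of the GINS ring, had 27.4, 17.5, 33.2, 26.7 and 30.9 CPM in control and 43.3, 34.8, 55.1 and 52 CPM with doxorubicin, with every treated library above every control library. Its log2 fold change was 0.83 (standard error 0.14, FDR 0.001). In GENCODE 70.7% of its exon length overlaps Gse1 on the opposite strand, and without the strand setting of the counting its level is uncertain.

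The other activators gave no call in any of these 3 fits. Cdc45, the partner of GINS, had 22.4, 13.8, 28.6, 23.1 and 19.6 CPM in control and 31, 24.4, 29.2 and 31.4 CPM with doxorubicin, and its 4 pairs changed by 0.47, 0.82, 0.03 and 0.44. Mcm10, which helps to start the fork, had 18.4, 8.56, 18.1, 16.8 and 13.5 CPM in control and 14.9, 13, 14.6 and 13.6 CPM with doxorubicin, with a drop of 0.31, 0.31 and 0.3 on the log2 scale in the WT, KO 1 and KO 2 pairs and a change of 0.60 in the Het pair. Gins4 had 30.5, 24.9, 32.4, 32.6 and 35.8 CPM in control and 34.9, 23.3, 36.9 and 43.4 CPM with doxorubicin. In all 3 of these genes treated and control libraries overlapped.

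The 2 remaining GINS genes had the lowest levels of the group. Gins1 had 5.08, 3.11, 7.86, 5.73 and 4.8 CPM in control and 5.02, 3.15, 5.84 and 5.56 CPM with doxorubicin, and Gins3 had 8.27, 6.47, 7.24, 6.29 and 8.08 CPM in control and 7.96, 5.23, 8.63 and 8.91 CPM with doxorubicin. Their log2 fold changes were -0.06 and 0.07, smaller than their standard errors of 0.23 and 0.2.

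The clamp loader RFC opens the PCNA clamp and sets it on DNA, and its large subunit Rfc1 showed the lowest log2 fold change of the 51 genes over all libraries, while Dnmt1 was the lowest without the 3 libraries that stood apart, at -2.53 against -2.22 for Rfc1. Rfc1 lies on chromosome 5 from 65261850 to 65335670 and had 51.4, 33.3, 47, 54.1 and 36.3 CPM in control and 10.1, 7.46, 12.6 and 10.2 CPM with doxorubicin. The highest treated library, 12.6 CPM in KO 1, was far below the lowest control library, 33.3 CPM in Het. Its log2 fold change was -2.12 (standard error 0.18, FDR 4.26e-05).

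The small RFC subunits gave no call in any of the 3 fits. Rfc2 had 40.3, 27.4, 40.8, 39.8 and 33.7 CPM in control and 28.6, 17.6, 37.3 and 26.5 CPM with doxorubicin, and Rfc5 had 21.2, 16.6, 27.3, 20.8 and 22.7 CPM in control and 19, 18.7, 22.4 and 25 CPM with doxorubicin. Rfc3 had 16.1, 22, 19, 17.6 and 27.7 CPM in control and 12.7, 12.5, 12.3 and 14.8 CPM with doxorubicin. At Rfc3 every treated library was below every control library, with an FDR of 0.0237.

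The same held for Rfc4, which had 10.4, 11.1, 12.8, 12.1 and 13.1 CPM in control and 8.85, 3.29, 7.18 and 9.18 CPM with doxorubicin and an FDR of 0.0283. The clamp itself, Pcna, had 52.5, 43.6, 63.3, 54.3 and 51.2 CPM in control and 49.3, 30.8, 62.5 and 51.4 CPM with doxorubicin, so the ranges of both treatments nearly coincided outside Het, and its log2 fold change was -0.12 (standard error 0.15, FDR 0.513). Pcna shares 51.4% of its transcript at 99.2% identity with the pseudogene Pcna-ps2, and reads may have been lost to that copy.

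Among the 9 genes of the replicative polymerases, none was called higher, and those that fell included members of each of the 3 enzymes. Pold1, the catalytic subunit of polymerase delta, had 37.3, 22.4, 36.2, 39.4 and 28.2 CPM in control and 8.56, 9.79, 11.8 and 9.46 CPM with doxorubicin, without overlap and with a log2 fold change of -1.68 (standard error 0.20, FDR 0.000198). Pold3 of the same enzyme fell by 1.35 (FDR 0.000166), Pola2 of polymerase alpha by 0.91 (FDR 0.0013) and Pole2 of polymerase epsilon by 1.3 (FDR 0.000899) on the log2 scale. In each of these 4 genes every treated library was below every control library.

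Pold2, the second subunit of polymerase delta, had 29.7, 12.5, 31.6, 32.5 and 15 CPM in control and 9.8, 10.7, 13.1 and 11.3 CPM with doxorubicin. It fell with the embryo as a block (log2 fold change -1.16, FDR 0.00213) but not over all libraries (FDR 0.0175). The untreated Het library, at 12.5 CPM, lay within the treated range and KO 3 control, at 15 CPM, just above it. Pola1, the catalytic subunit of polymerase alpha, had 39.5, 8.07, 44.4, 37.2 and 8.84 CPM in control and 20.8, 5.18, 22.3 and 16.3 CPM with doxorubicin and showed the same pattern, with log2 fold changes of -0.71 (FDR 0.171) over all libraries and -0.95 (FDR 0.00036) with the block. Pole, the catalytic subunit of polymerase epsilon, had 47.2, 15.4, 57, 47.7 and 23.2 CPM in control and 21.9, 20, 25.2 and 22.4 CPM with doxorubicin. It fell only in the fit without the 3 libraries that stood apart (log2 fold change -1.13, FDR 5.66e-06), the Het pair having moved by 0.38.

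The primase genes, whose enzyme lays down RNA primers, gave no call in any of the 3 fits. Prim1 had 18.1, 14.5, 22, 19 and 24.4 CPM in control and 16.7, 7.56, 20 and 20.8 CPM with doxorubicin, and Prim2 had 26.8, 13.2, 33.5, 26.3 and 17.4 CPM in control and 26.3, 24, 21.4 and 24.2 CPM with doxorubicin. The Prim2 pairs changed by -0.03, 0.86, -0.64 and -0.12, with only the Het pair above 0.

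Replication protein A coats single-stranded DNA, and its 3 subunits differed. Rpa2, the subunit that is phosphorylated upon damage, had 26, 15.6, 34.1, 30.9 and 20.1 CPM in control and 47.5, 20.5, 56.3 and 50.8 CPM with doxorubicin. It rose, with a log2 fold change of 0.79 (standard error 0.19, FDR 0.00721), and the treated Het library, at 20.5 CPM, was the only one within the control range. Rpa1, the large subunit, had 154, 45.8, 155, 136 and 51.5 CPM in control and 146, 37.4, 166 and 129 CPM with doxorubicin, and its log2 fold change was 0.12 (standard error 0.31, FDR 0.761).

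Rpa3, the small subunit, had 10, 27.8, 12.6, 9.15 and 44.8 CPM in control and 19.2, 16.4, 17.6 and 19.2 CPM with doxorubicin. The Het and KO 3 control libraries were the highest of all, and the sign of the change turned on them: the log2 fold change was -0.12 (standard error 0.48, FDR 0.85) over all libraries and 0.81 (standard error 0.15, FDR 0.000707) without the 3 libraries that stood apart.

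The enzymes that finish Okazaki fragments did not pass over all libraries. Fen1, the flap nuclease, had 49.8, 19.4, 57, 49.9 and 21.2 CPM in control and 66.6, 23.1, 77.9 and 64.5 CPM with doxorubicin. It was higher in all 4 pairs and rose without the 3 libraries that stood apart (log2 fold change 0.41, FDR 0.00367), and 80.5% of its transcript is identical to the gene model Gm10143. Lig1, the ligase that seals the fragments, had 48.4, 20.3, 55.4, 50.2 and 23.2 CPM in control and 58.4, 18.9, 76.2 and 61.5 CPM with doxorubicin, with an FDR of 0.011 without those libraries.

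The 2 subunits of ribonucleotide reductase, which makes deoxynucleotides, changed with opposite sign in every pair of libraries. Rrm1, the large subunit on chromosome 7 from 102441695 to 102469771, had 315, 77.5, 451, 318 and 81.4 CPM in control and 71.3, 21.1, 131 and 68.2 CPM with doxorubicin. Rrm2, the small subunit that is made in S phase, on chromosome 12 from 24708241 to 24714146, had 160, 52.4, 252, 179 and 74 CPM in control and 333, 118, 414 and 352 CPM with doxorubicin. Over all libraries both just missed the threshold, with log2 fold changes of -1.73 (standard error 0.46, FDR 0.0114) and 1.15 (standard error 0.31, FDR 0.0125).

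With the embryo as a block Rrm1 fell by 2.01 (FDR 4.76e-06) and Rrm2 rose by 0.98 (FDR 7.88e-05) on the log2 scale, and both were also called without the 3 libraries that stood apart, at -2.02 and 0.90. The ratio of Rrm2 to Rrm1 was 0.507, 0.677, 0.558, 0.565 and 0.909 in control and 4.67, 5.56, 3.15 and 5.16 with doxorubicin, so the lowest treated ratio was above the highest control ratio. Per kb of exon the pair had the highest control medians of the 51 genes, at 78.9 CPM for Rrm1 and 72.8 CPM for Rrm2, and with doxorubicin the medians were 17.4 and 156 CPM per kb.

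**Figure D3:**
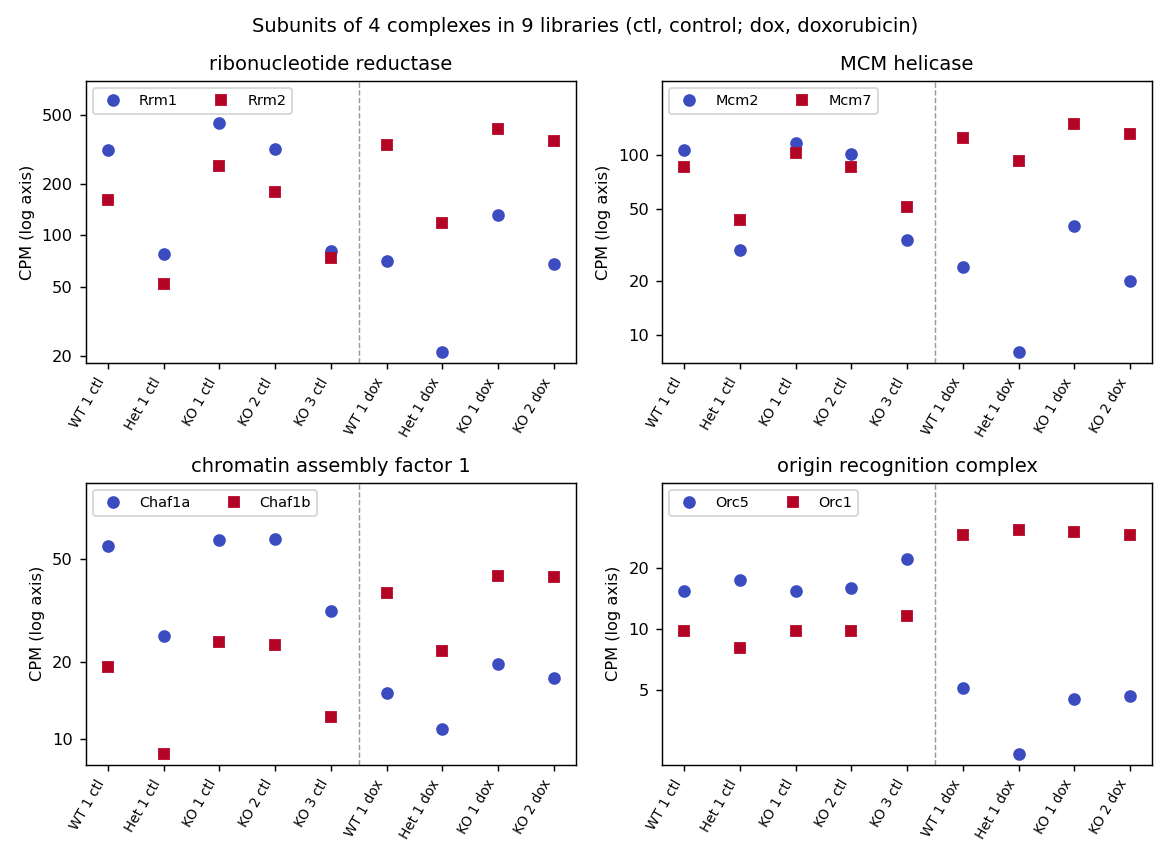
Each panel gives the CPM on a log axis of a pair of subunits of the same complex in the 9 libraries, with control left of the dashed line. In each of the 4 panels 1 subunit is lower and the other higher with treatment in every pair of libraries, as for Rrm1, at 315 and 71.3 CPM in WT control and doxorubicin, and Rrm2, at 160 and 333 CPM. The panels were picked to show subunits that moved apart.

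Of the other nucleotide genes, Tyms, thymidylate synthase, had 49.8, 43.8, 68.1, 48.6 and 60.3 CPM in control and 30.5, 20.6, 43.5 and 32.1 CPM with doxorubicin and fell without overlap, with a log2 fold change of -0.76 (standard error 0.17, FDR 0.00501). Tk1, thymidine kinase, had 35.2, 16.6, 53.9, 37.7 and 23.9 CPM in control and 17.4, 6.15, 34.1 and 16.6 CPM with doxorubicin, and fell with the embryo as a block (log2 fold change -1.06, FDR 0.00033) but not over all libraries (FDR 0.0374). Dut, which removes dUTP, had 65.2, 50.6, 79.5, 67.1 and 75.1 CPM in control and 64.4, 34.2, 82.3 and 64 CPM with doxorubicin, and its log2 fold change was -0.14 (standard error 0.15, FDR 0.471).

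The genes that restore chromatin and DNA methylation behind the fork differed in direction. Among them, Dnmt1 had the largest drop of the 51 genes in each of the WT, KO 1 and KO 2 pairs. Dnmt1, the maintenance DNA methyltransferase on chromosome 9 from 20907209 to 20959888, had 177, 65.8, 208, 179 and 74 CPM in control and 28.1, 36.4, 37.9 and 32.2 CPM with doxorubicin. All treated libraries were below all control libraries, the log2 fold change was -1.97 (standard error 0.38, FDR 0.00226), and the pairs changed by -2.65, -0.85, -2.45 and -2.47. Without the 3 libraries that stood apart its log2 fold change was -2.53 (standard error 0.11, FDR 4.32e-08). Uhrf1, which guides DNMT1 to new DNA, had 85, 24.9, 101, 90.4 and 34.5 CPM in control and 37.9, 16.9, 47 and 33.2 CPM with doxorubicin, and fell with the embryo as a block (log2 fold change -1.08, FDR 0.000306) but not over all libraries (FDR 0.0359). It shares 44.3% of its transcript with the gene model Gm5648, at 98.3% identity.

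The subunits of CAF-1, the histone chaperone of the fork, changed in opposite directions. Chaf1a, the large subunit on chromosome 17 from 56040439 to 56072289, had 56.4, 25.1, 59.5, 60.1 and 31.5 CPM in control and 15.1, 10.9, 19.6 and 17.3 CPM with doxorubicin, without overlap and with a log2 fold change of -1.49 (standard error 0.23, FDR 0.000755). Chaf1b, the middle subunit on chromosome 16 from 93883901 to 93906115, had 19.1, 8.73, 23.9, 23.3 and 12.2 CPM in control and 36.9, 22, 43.2 and 42.7 CPM with doxorubicin and a log2 fold change of 1.13 (standard error 0.22, FDR 0.0022). The ratio of Chaf1b to Chaf1a was 0.338, 0.347, 0.402, 0.388 and 0.388 in control and 2.45, 2.01, 2.2 and 2.47 with doxorubicin, and it varied little among the controls, the libraries that stood apart included. Ratios were also taken of Rfc4 to Rfc1, Rpa2 to Rpa1 and Pold2 to Pold1. Across the pairs of libraries they changed by 0.40 to 2.11, 0.63 to 0.94 and 0.35 to 0.97 on the log2 scale. Rpa2 to Rpa1 overlapped between treatments, at 0.39 in KO 3 control and 0.325 in WT doxorubicin. Of the exon length of Chaf1a, 33.6% overlaps Ubxn6 on the opposite strand.

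The cyclins E drive entry into S phase with CDK2. Ccne1 had 72.8, 33.9, 106, 85.1 and 52.3 CPM in control and 69.6, 31.9, 89.8 and 71.3 CPM with doxorubicin, and its log2 fold change was -0.04 (standard error 0.21, FDR 0.888). Ccne2 had 12.3, 10, 13.9, 13.1 and 20.1 CPM in control and 19.7, 16.4, 17.9 and 21.6 CPM with doxorubicin, and rose with the embryo as a block (log2 fold change 0.62, FDR 0.00344) but not over all libraries (FDR 0.0537). The highest Ccne2 control was again KO 3, and the other controls lay below all treated libraries.

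The treatment change of the 51 genes was also set beside gene span, the length from start to end in GENCODE with introns. The differences between span classes were not tested. The 10 genes under 10 kb had a median log2 fold change of -0.08, with 1 lower and 0 higher, and the 8 genes of 40 to 80 kb had a median of -0.99, with 5 lower and 0 higher. Over all genes tested the medians of these span classes were 0.31 and -0.14, with 11% lower and 27.5% higher under 10 kb and 23.7% lower and 20.3% higher at 40 to 80 kb. The 17 genes of 10 to 20 kb and the 14 of 20 to 40 kb had medians of -0.27 and -0.38, beside 0.04 and -0.09 over all genes. The 2 genes over 80 kb had a median of -0.31, beside -0.18. Spearman's rho between span and log2 fold change was -0.359 over the 51 genes and -0.129 over 15881 genes, as descriptions across genes of the same libraries. Long genes were also among those that did not pass: Pola1 and Prim2, the only genes over 80 kb, had log2 fold changes of -0.71 and 0.09.

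**Figure D4:**
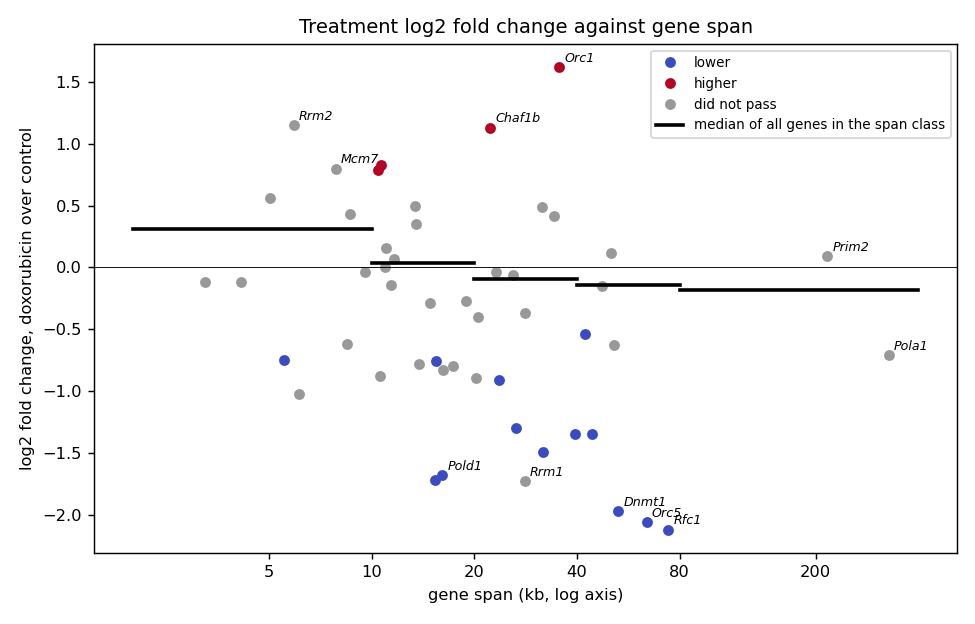
Each point is 1 of the 51 genes, with its span in kb on a log x axis and its treatment log2 fold change over all libraries on the y axis, and black lines give the median of all genes tested in 5 span classes (drawn from 2 to 400 kb). Orc5, Rfc1 and Dnmt1, at spans between 40 and 80 kb, have the lowest values near -2, while Orc1, at a span of 35411 bases, has the highest.

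Other genes of these pathways, from lists chosen with earlier results of these data known, also held calls in both directions. Of 30 further fork and origin genes 7 fell and 5 rose, from Top2a, topoisomerase II alpha, at -2.36 and the kinase gene Cdc7 at -1.85 to the firing factor Ticrr at 1.37 and the helicase Recql4 at 2.13 on the log2 scale. Recql4 had 7.07, 8.32, 5.86, 7.58 and 11.3 CPM in control and 30, 48.4, 33.1 and 32.1 CPM with doxorubicin, so that all treated libraries were above all controls. With the embryo as a block 13 of these 30 fell and 6 rose, and without the 3 libraries that stood apart 16 and 8, beside the shares of all genes given above for each fit. Of 16 other nucleotide genes 2 fell and 3 rose, among them Impdh2, of guanine nucleotide synthesis, at -0.96 and Rrm2b, the p53-induced subunit of ribonucleotide reductase, at 1.59. With the block 5 fell and 5 rose, and without the 3 libraries 6 and 7.

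Of 10 further chromatin genes of S phase, 5 fell and 1 rose, with Atad2 at -2.10, Hells at -1.21 and the centromeric histone gene Cenpa at 0.63, and 6 fell and 2 rose with the block, 5 and 2 without the 3 libraries. Of 22 other G1/S regulators 7 fell and 6 rose, from Skp2, a subunit of the ubiquitin ligase of p27, at -1.37 and Myc at -1.21 to the E2F genes E2f7 at 1.44 and E2f2 at 1.72. With the block 10 fell and 6 rose, and without the 3 libraries 11 and 6. Of 16 p53 response genes 1 fell and 2 rose: Phlda3, at -1.46, Perp, at 2.34, and Rrm2b. Over all genes the shares were 18.7% and 21.9%. Of these 16 genes 4 fell and 3 rose with the block, beside 26.9% and 30% of all genes, and 4 fell and 4 rose without the 3 libraries, beside 31.4% and 35.1%. Cdkn1a, the gene of the CDK inhibitor p21 and a target of p53, had 555, 533, 449, 493 and 392 CPM in control and 271, 304, 312 and 337 CPM with doxorubicin, so that all treated libraries were below all controls. It did not pass over all libraries (log2 fold change -0.67, FDR 0.0145) and fell with the embryo as a block (log2 fold change -0.73, FDR 0.00058). Mdm2 and Ccng1, also targets of p53, had log2 fold changes of -0.25 (FDR 0.512) and -0.19 (FDR 0.497).

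KO was next compared with WT within each treatment. Without treatment 0 of the 51 genes passed edgeR's quasi-likelihood test, and none of them reached an unadjusted p under 0.05. Of all 14947 genes tested 0% passed, and 15 reached that unadjusted p. DESeq2 likewise called 0 genes, with 107 at an unadjusted p under 0.05, and RUVg with edgeR's exact test called 57 genes (0.381%), 0 of the 51 among them. By that exact test 1374 genes reached an unadjusted p under 0.05, 4 of the 51 among them. The p values that follow are those of the quasi-likelihood test. The smallest p values among the 51 were those of Rpa3, Rfc3 and Ccne2, with log2 fold changes of 1.18 (standard error 1.08, unadjusted p = 0.327, FDR 1), 0.44 (standard error 0.44, unadjusted p = 0.364, FDR 1) and 0.38 (standard error 0.45, unadjusted p = 0.439, FDR 1). In each of these genes KO 3 was the highest KO library, at 44.8, 27.7 and 20.1 CPM. The spread of this fit comes from the KO libraries, KO 3 among them. The lack of calls therefore does not show that KO and WT were alike.

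The median log2 ratio of the 51 genes to WT was 0.24 in KO 1, 0.05 in KO 2 and -0.40 in KO 3, so the 3 KO libraries differed among themselves by more than KO 2 differed from WT. Of the 51 genes 7, 16 and 34 lay below WT in these libraries, beside 49.3%, 49.6% and 47.1% of all genes. With doxorubicin 0 of the 51 genes passed edgeR's quasi-likelihood test in either direction and none reached an unadjusted p under 0.05, while of 16210 genes 0.0247% were lower, 0.0123% were higher and 0.037% passed in all. The smallest p values were those of Rrm1, Tk1 and Pole2, with log2 fold changes of 0.49 (standard error 0.26, unadjusted p = 0.0787, FDR 1), 0.54 (standard error 0.30, unadjusted p = 0.0875, FDR 1) and 0.59 (standard error 0.37, unadjusted p = 0.12, FDR 1). At Rrm1 and Tk1 the KO 2 library, at 68.2 and 16.6 CPM, lay below WT, at 71.3 and 17.4 CPM, and KO 1 lay above it. With doxorubicin 11 of the 51 genes lay below the single WT library in KO 1 and 16 in KO 2, beside 48.8% and 50% of all genes. The median log2 ratios of the 51 genes were 0.26 and 0.06. The interaction of genotype and treatment passed at 0 of the 51 genes by edgeR's quasi-likelihood test, beside 0 of 16656 genes, with 0 of the 51 and 58 of all genes below an unadjusted p of 0.05. With the embryo as a block 8 genes passed the interaction test, and 0 of the 51 were among them.

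Het was compared with WT by a single library in each treatment, with the spread taken from the KO libraries. In control 45 of 51 genes were lower in Het, with a median log2 ratio of -0.73, while 46% of all genes were lower and the median of all genes was 0.05. The ratios ran from -2.28 at Pola1 to 1.46 at Rpa3. KO 3 control shared this pattern, with 34 of 51 genes below WT, a median of -0.40, and the same genes at the ends, Pola1 at -2.15 and Rpa3 at 2.15. Scaled by library totals alone the medians of Het and KO 3 were -0.14 and 0.15, beside 0.64 and 0.56 over all genes. The KO 3 median against WT thus turned from -0.40 to 0.15. Such scaling shifts every gene of a library alike, so it cannot change the difference from all genes. None of the 51 passed in Het control by edgeR's quasi-likelihood test, where 0% of 14947 genes passed and 224 reached an unadjusted p under 0.05, and the smallest p values were those of Cdt1, Mcm10 and Pole, with log2 fold changes of -1.14 (standard error 0.47, unadjusted p = 0.0638, FDR 0.699), -1.07 (standard error 0.47, unadjusted p = 0.0728, FDR 0.699) and -1.58 (standard error 0.71, unadjusted p = 0.0804, FDR 0.699). Without KO 3 in the spread 21 were lower and 1 was higher, beside 12.2% and 9.77% of 14745 genes.

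With doxorubicin 17 of 51 genes were lower in Het than in WT and 0 were higher, beside 9.2% and 8.78% of 16210 genes, or 18% in either direction. The smallest p values were those of Mcm6, at -2.15 (standard error 0.26, unadjusted p = 3.11e-08, FDR 3.9e-06), Mcm3, at -2.01 (standard error 0.25, unadjusted p = 5.93e-08, FDR 6.18e-06), and Rpa1, at -1.96 (standard error 0.26, unadjusted p = 1.57e-07, FDR 1.31e-05), all on the log2 scale. The others were Mcm2, Mcm4, Pola1, Prim1, Lig1, Fen1, Rfc4, Rpa2, Rrm1, Rrm2, Tk1, Dut, Uhrf1 and Ccne1. The spread behind these calls comes from KO 1 and KO 2 alone, and in a single fit over all 9 libraries 0 passed. The interferon-stimulated list was at 1447 CPM in this Het library and at 302 CPM in WT, and the fibroblast list at 22376 and 59712 CPM, and their part in these differences was not tested.

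**Figure D5:**
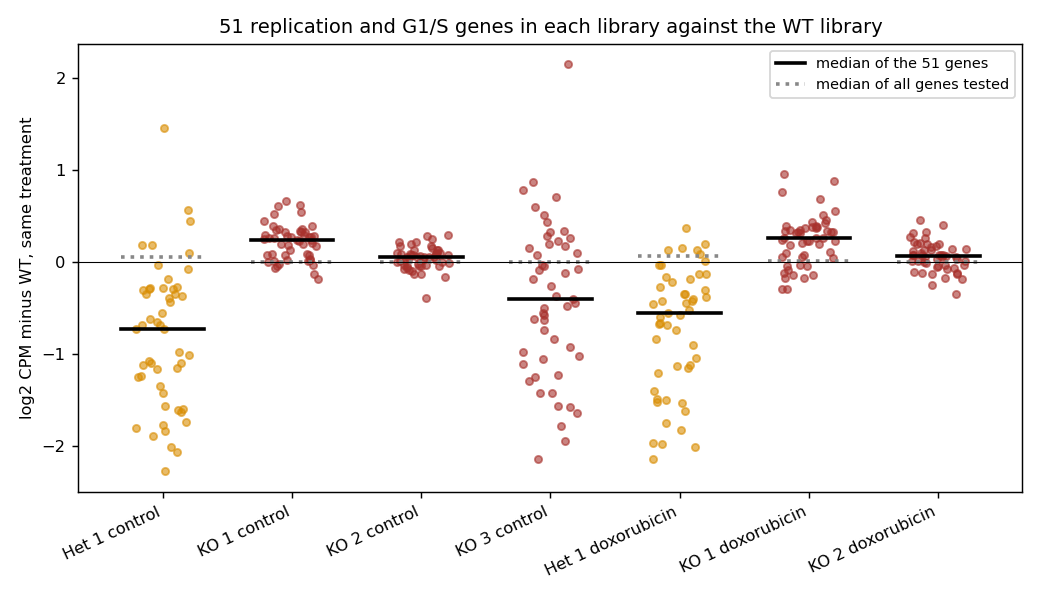
Points give the log2 CPM of each of the 51 genes minus that of the WT library of the same treatment, for the 7 other libraries, with the black line at the median of the 51 genes and the dotted line at the median of all genes tested. The medians are -0.73 and -0.56 in Het and -0.40 in KO 3 control, and between 0.05 and 0.26 in KO 1 and KO 2.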

How the data were processed

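RNA of control and doxorubicin-treated MEFs was made into libraries with a TruSeq Stranded mRNA kit with Ribo-Zero Gold. Single-end reads of 150 bases were aligned by the authors to mm10 with HISAT2 (version 2.1.0 in the submitters' processing notes) and counted with HTSeq in union mode, and the strand setting is not given in the sources used here. The deposited values are raw counts per gene of 10 columns, each the sum of 4 lanes. Of these 9 were used, since 1 repeated another.

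Members, role groups and the other gene lists were chosen with earlier results of these data known. Counts were scaled by TMM, genes were filtered with filterByExpr, and the tests were edgeR 4.0.16 quasi-likelihood F tests in R 4.3.3 with limma 3.58.1, two-sided, at a Benjamini-Hochberg FDR under 0.01 over all genes tested. The treatment fit had genotype as a covariate, and genotypes were fitted within each treatment. DESeq2 1.42.0, RUVg, other scalings, filters, thresholds and samples were alternatives. The scripts were tested on simulated data. CPM used TMM-scaled totals, log2 ratios a prior count of 2, and 3 counts were taken as the floor of detection. All values cover these libraries only, with total counts of 15560728 to 24122414.

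Same genotype and number were taken as the same embryo: deviations of paired libraries from their treatment means had Pearson correlations of 0.519 (WT), 0.71 (Het), 0.588 (KO 1) and 0.498 (KO 2) over 16656 genes. Mismatched pairs were not compared in this way, so these values do not show that paired libraries share an embryo. The log2 CPM of KO 2 control had a Pearson correlation of 0.888 with WT, KO 1 and KO 2 doxorubicin alike. Blocked values are given for each of the 51 genes whose call changes, and blocked counts for the other lists. In each role group the lowest and highest treatment change and every gene that rose or did not pass were described by library. In other lists the 2 lowest and 2 highest could be named, with Cdkn1a, Mdm2, Ccng1 and Sall2, and in genotype contrasts those that passed or the 3 smallest p values. A gene of another list that this rule allows is not reported here. Overlaps and spans came from GENCODE M21, found by symbol for all 51 genes, near-identical copies from minimap2 2.31-r1302 (at least 90% identity over 30% of the transcript), and promoters from RefSeq.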

Additional observations from a re-analysis of the deposited data

Results flagged for a closer look

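For 9 genes the change with doxorubicin had one sign in the Het pair or the WT pair and the opposite sign in both KO pairs. The log2 change in the Het pair was 0.38 at Mcm5, against -0.75 and -0.68 in KO, 0.60 at Mcm10, against -0.31 and -0.30, and 0.02 at Gins1, against -0.42 and -0.04. At Prim2 it was 0.86 in Het and -0.64 and -0.12 in KO. At Pole, the catalytic subunit of polymerase epsilon, it was 0.38 in Het and -1.17 and -1.09 in KO. The Het change was negative and the KO changes were positive at Gins3, with -0.30 against 0.25 and 0.50, at Gins4, with -0.10 against 0.19 and 0.41, at Rpa3, with -0.76 against 0.48 and 1.06, and at Lig1, with -0.10 against 0.29 and 0.46. These differences between Het and KO were not tested, and both Het libraries are among the 3 that stood apart. Some of the changes lay near 0, as 0.02 and -0.04 at Gins1 and -0.10 at Gins4 and Lig1. The share of all genes with such opposed signs is not given here, so the count of 9 cannot be called particular to these genes. At Gins3 the WT change of -0.05 also opposed that of both KO pairs, and the interaction test of KO against WT did not pass there.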

How the results depend on the processing

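The 17 genes called for treatment kept their sign in all 22 other settings, and of the 34 that did not pass 23 kept it. A kept sign is not a kept call: Orc2, for example, did not pass with upper-quartile scaling, with library totals alone or in KO libraries only. Beside 13 lower and 4 higher genes, there were 7 and 1 at an FDR under 0.001, 20 and 7 at an FDR under 0.05, 21 and 8 with the embryo as a replicate block, 4 and 1 in KO libraries only, and 23 and 10 without the 3 libraries that stood apart. Over all genes there were 1543 lower and 1887 higher at an FDR under 0.001 and 4382 and 4876 at an FDR under 0.05. In KO libraries only there were 710 and 1201 of 14904. The shares for the block and without the 3 libraries are given in the report. Higher genes numbered 7 with upper-quartile scaling, with at least 10 counts in every library and with DESeq2, and 1 with treatment alone. Over all genes tested the higher calls in these settings were 4223 of 16656, 2295 of 12351, 4513 of 16656 and 3453 of 16656. Leaving out 1 library at a time gave 7 to 21 lower and 2 to 8 higher genes, with the extremes named in the report. Over all genes these fits gave 1933 to 4560 lower and 2351 to 5210 higher. Rpa3 turned from -0.12 to 0.81 on the log2 scale without the 3 libraries. Of Het against WT, 0 to 22 genes were called in control when a KO library was left out, 22 of them without KO 3 control, and with doxorubicin 10 of 17 were called by DESeq2 and 0 in a single fit over 9 libraries. The causes were not tested. The embryo as a block changed no call of the interaction among the 51 genes. No paired analysis was possible for the genotype contrasts because the genotypes are different embryos. Leaving out a KO doxorubicin library leaves no residual degrees of freedom within that treatment, and those fits were not run. With 1 WT and 1 Het library per treatment, genotype differences smaller than the spread among KO libraries cannot be seen.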
